A study of Mus musculus with 8 samples.

Results

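Apolipoproteins and the factor that loads them with lipid, 10 genes in all, were examined in newborn mouse liver without glycerol kinase: Apoa1, Apoa2, Apoa4, Apoa5, Apob, Apoc2, Apoc3, Apoe, Apom and Mttp. A gene entered through every probe set that the array's annotation pairs with that 1 gene symbol, which gave 17 of the 45037 probe sets that read transcripts, and all 10 genes had at least 1. All 17 were among the 20395 probe sets tested, and the lowest signal of any of them on any array was 1031. The groups were 4 glycerol kinase knockout pups and 4 wild-type littermates, all labelled as male, inbred C57BL/6J and taken on day of life 3. Each liver went to its own Affymetrix Mouse 430 2.0 array, and its values are signal intensities, linear and not logged. The knockout was made by targeted disruption, with no further detail of the allele in the sources used here. Each pup is a separate animal, and the design text states that knockout pups are hypoglycemic and acidotic on this day. The targeted gene was not analysed here, so its level did not check the labels.

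Lipoproteins carry triglyceride and cholesterol through blood. Hepatocytes build very low density lipoprotein (VLDL) around 1 molecule of apolipoprotein B, which the microsomal triglyceride transfer protein Mttp loads with lipid in the endoplasmic reticulum. Smaller apolipoproteins then exchange between particles, where they shape high density lipoprotein (HDL), switch lipoprotein lipase on or off, or bind uptake receptors. Newborn mice live on fat-rich milk, and the liver makes most of these proteins.

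Apoa1, Apoc3, Apoa4 and Apoa5 lie next to each other on chromosome 9 with no other protein-coding gene between them, in the RefSeq table of mouse build GRCm38.p6. Apoe lies beside Apoc1, and Apoc2 beside Apoc4, on chromosome 7. RefSeq promoter windows of 250 bases before to 50 after a start were at hand for 9 of the 10 genes, 13 windows in all. The 200 bases before the start are shown for Mttp, the gene with the largest difference between the groups, and for Apoa4 and Apoa5, neighbours whose signals varied together. Capitals mark matches, on either strand, to a CRE half-site (TGACGT) in Mttp, an HNF4-type element (CAAAGNNCA) in Apoa4, and an E box (CACGTG) and a TATA box (TATAAA) in Apoa5, all in build GRCm38.p6 and written 5′ to 3′ along the gene's strand.
Mttp, chr3:138143419-138143618 (- strand): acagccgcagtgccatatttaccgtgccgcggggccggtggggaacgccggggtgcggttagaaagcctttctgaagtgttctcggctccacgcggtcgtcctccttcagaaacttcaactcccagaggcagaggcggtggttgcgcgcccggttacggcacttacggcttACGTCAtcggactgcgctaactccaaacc
Apoa4, chr9:46240644-46240843 (+ strand): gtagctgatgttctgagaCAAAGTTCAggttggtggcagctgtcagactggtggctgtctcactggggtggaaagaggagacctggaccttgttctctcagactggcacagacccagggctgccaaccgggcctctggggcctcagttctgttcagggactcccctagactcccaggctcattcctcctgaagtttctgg
Apoa5, chr9:46268408-46268607 (+ strand): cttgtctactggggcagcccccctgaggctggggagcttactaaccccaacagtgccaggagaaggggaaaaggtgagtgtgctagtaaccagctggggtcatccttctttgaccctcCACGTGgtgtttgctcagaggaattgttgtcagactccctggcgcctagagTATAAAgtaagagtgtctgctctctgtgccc

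The matches are descriptions of letters and not of bound sites. The CRE half-site stood in 1 of the 9 genes' windows, Mttp, and in 7.51% of all 32851 windows. The HNF4-type letters stood in 2 of 9 genes, Apoa4 and Apob, against 6.36% of all windows. The E box stood in 1 gene, Apoa5 (7.15% of all windows), and the TATA box in 4, Apoa2, Apoa5, Apob and Apoe (13.6%). A CCAAT box (CCAAT) was found for 1 gene, Apoa2 (37.4% of all windows). The HNF1-type element searched was found in 0 of the 9 (0.113%). These counts are of genes, some with more than 1 window, while the shares are of windows. Of the 13 windows, the TATA box stood in 5 and the CRE half-site in 1. The HNF4-type letters, the E box and the CCAAT box stood in 2 each.

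Some arrays stood apart whatever their group. The library labelled wild type 4 did not read as male: its Xist signal was 10506, against 196 to 396 on the other 7 arrays. Its Eif2s3y signal was 1.3, against 685 to 1164 on the other 7. The 3'/5' signal ratio of the transferrin receptor control ran from 6.50 to 6.72 on replicates 1 and 2 of both groups and from 4.21 to 4.83 on replicates 3 and 4. The pyruvate carboxylase 3'/5' ratio, which reads how far transcripts were covered, was 7.03 on knockout 1 and 4.93 on knockout 2, against 2.06 to 3.46 on the other 6 arrays. For this reason the change is also given within replicates 1 and 2 and within replicates 3 and 4, here called replicate sets. The labels do not say what the sets are.

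None of the 10 genes passed the test between knockout and wild type. The test was limma on log2(signal + 16) over all probe sets tested, with a Benjamini-Hochberg adjusted p under 0.05 as the threshold, which called 61 probe sets or 0.299% of those tested. The fitted log2 fold change, knockout minus wild type, lay above 0 for 10 of 10 genes, with a median of 0.20 beside -0.03 over all probe sets tested. Among the 4009 tested probe sets at least as bright as the dimmest of the 17, the median was 0.05 and 57.4% lay above 0. That cut-off was the mean of the dimmer Apob probe set, 1758. The brightest probe sets of the 10 genes averaged from 5970 (Mttp) to 33309 (Apoa1), so the 4009 are not matched to them in brightness. Without knockout 1 the median of the 10 genes was 0.0021 and 6 of 10 lay above 0, with Apoa2, Apoa4, Apoa5 and Apoc3 below it. The median was 0.12 without knockout 2, 0.36 without knockout 4 and 0.059 without wild type 2. Quantile normalization put 7 of 10 above 0, Apoa1 at 0 and Apoa2 and Apoc2 below, with a median of 0.077. At an unadjusted p under 0.05, 2 genes were higher (Mttp and Apom) and 0 lower, against 7.12% higher and 7.32% lower among all probe sets tested. Of the 4009 bright probe sets, 542 were higher and 315 lower at that p. In 1 of the 17 probe sets, the dimmer one of Mttp, all knockout arrays lay above all wild-type arrays, which held for 4.47% of those tested.

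**Figure D1:**
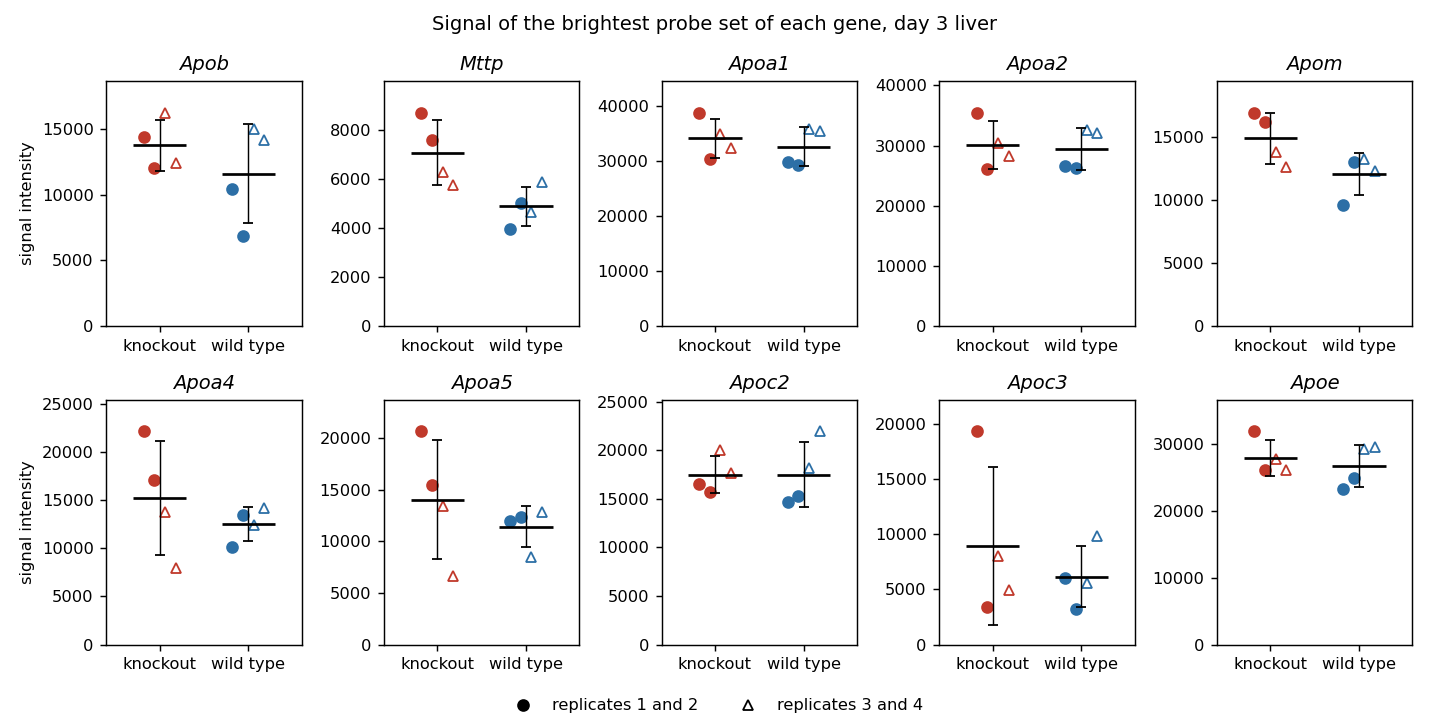
Signal intensity (y axis, linear from 0) for the brightest probe set of each of the 10 genes, with knockout left and wild type right, 1 point per array, bars at the mean and SD of 4. Filled circles are replicates 1 and 2 and open triangles replicates 3 and 4. Mttp shows the clearest step, with means of 7066 in knockout and 4873 in wild type, while Apoa1 and Apoa2 have nearly equal means.

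Mttp, the transfer protein that loads apolipoprotein B with lipid, had the largest difference. Its brighter probe set, 1419400_at, read 8676, 7579, 6253 and 5755 on knockout 1 to 4, and 3970, 5010, 4655 and 5859 on wild type 1 to 4. Knockout 1, 2 and 3 lay above every wild-type array, and knockout 4 lay just under wild type 4. The means were 7066 ± 1321 in knockout and 4873 ± 786 in wild type (SD, n = 4 each), a log2 fold change of 0.53 ± 0.16 (SE; limma adjusted p = 0.183, unadjusted p = 0.0082). The other probe set, 1419399_at, read 5913, 6188, 5859 and 4814 in knockout, against 2541, 3812, 3514 and 4021 in wild type, so the groups did not overlap. It had a log2 fold change of 0.73 ± 0.16 with an interval from 0.37 to 1.08 (95%; limma adjusted p = 0.0898, unadjusted p = 0.00095), the 216th smallest p of the 20395. Leaving out knockout 4 took it past the threshold, at 0.80 (limma adjusted p = 0.0484), in a fit that called 334 probe sets in all, against 61. Without wild type 4 it was also 0.80 (limma adjusted p = 0.115).

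Within replicates 1 and 2 the brighter Mttp probe set was higher by 0.86 ± 0.22 on the log2 scale, and within replicates 3 and 4 by 0.20 ± 0.14. The dimmer one was higher by 0.95 ± 0.25 and 0.50 ± 0.14 (SE, 2 arrays against 2; limma adjusted p = 0.149 and 0.229). Mttp was thus the gene with both probe sets above 0 in both sets. The difference between the sets, replicates 3 and 4 minus replicates 1 and 2, was -0.66 ± 0.26 for the brighter and -0.46 ± 0.30 for the dimmer probe set (limma adjusted p = 0.490 and 0.600).

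The single-gene probe sets most like Mttp over the 8 arrays were those of Fars2 (Pearson r = 0.992), Epas1 (0.991), Map4k4 (0.985), Itprid2 (0.985) and Tcn2 (0.984). These were the highest of all probe sets compared with its brighter one, so high values are partly fixed by the search, and arrays share their scaling. Their own log2 fold changes ran from 0.37 for Itprid2 to 1.17 for Epas1, and 0 of the 5 passed the test.

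Apob, the large protein that forms the particle's backbone, had a wild-type SD larger than the difference of the group means. Probe set 1455593_at read 14388, 12005, 16204 and 12385 on knockout 1 to 4, and 10411, 6836, 14961 and 14161 on wild type 1 to 4. Wild type 1 and 2 were the 2 lowest arrays, and every other value of wild type lay within the knockout range. The log2 fold change was 0.30 ± 0.22 (limma adjusted p = 0.586). With 1 array left out it ran from 0.068 (without wild type 2) to 0.44 (without wild type 3). It was 0.64 ± 0.25 in replicates 1 and 2 and -0.04 ± 0.14 in replicates 3 and 4. The dimmer probe set, 1457554_at, averaged 1755 ± 484 in knockout and 1760 ± 841 in wild type (SD, n = 4 each). It was highest on wild type 4 (2791) and lowest on wild type 2 (1031), and had a log2 fold change of 0.08 ± 0.32.

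**Figure D2:**
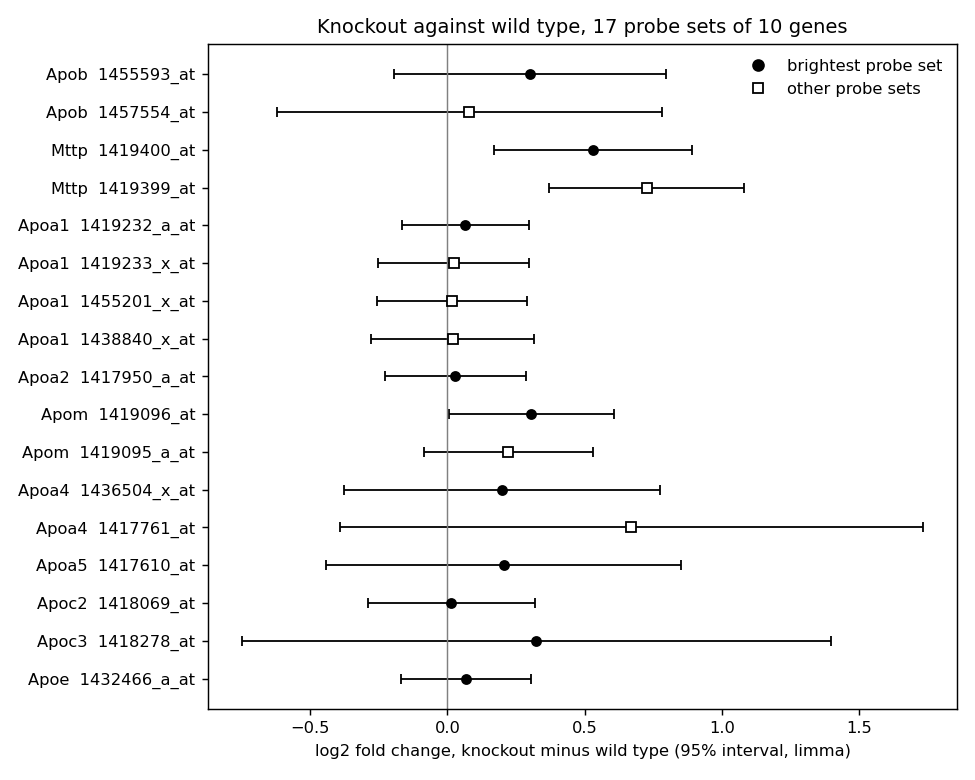
Log2 fold change, knockout minus wild type (x axis), for each of the 17 probe sets, named by gene and probe set down the y axis. Points are limma estimates with 95% intervals, filled for the brightest probe set of a gene and open for the others. The intervals of both Mttp probe sets and of the brighter Apom probe set lie above 0, the lowest bound being 0.0053 for Apom, before any adjustment for the number of probe sets.

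Apoa1 and Apoa2, the structural proteins of HDL, had high signals in both groups and means that differed by less than their SD. Apoa1, the main HDL protein and activator of the cholesterol esterifying enzyme Lcat, read 38679, 30274, 34910 and 32393 on knockout 1 to 4, and 29780, 29266, 35762 and 35404 on wild type 1 to 4 (1419232_a_at). Knockout 1 was the highest array and wild type 2 the lowest. Knockout and wild-type values overlapped, and the log2 fold change was 0.07 ± 0.10 with a 95% interval from -0.16 to 0.30 (limma adjusted p = 0.814). The other 3 probe sets of Apoa1 had log2 fold changes of 0.02 each. The table gives no saturation flag, so a ceiling of the scanner at these signals was not tested.

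Apoa2, the second HDL protein, read 35428, 26081, 30425 and 28317 on knockout 1 to 4, and 26692, 26251, 32646 and 32128 on wild type 1 to 4. Knockout 1 was the highest and knockout 2 the lowest of all 8 arrays. Its log2 fold change was 0.03 ± 0.12, with an interval from -0.23 to 0.28 (95%; limma adjusted p = 0.936). Over the 8 arrays Apoa1 and Apoa2 ran nearly in parallel (Pearson r = 0.985, a description over arrays that share their scaling).

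Apom, a lipocalin that carries sphingosine 1-phosphate on HDL, was the other gene under an unadjusted p of 0.05, in the comparison as fitted and in 8 of the 20 alternative settings. Its brighter probe set, 1419096_at, read 16884, 16185, 13811 and 12583 on knockout 1 to 4, and 9600, 12991, 13266 and 12295 on wild type 1 to 4. Knockout 1, 2 and 3 lay above every wild-type array, and wild type 1 was the lowest. The means were 14866 ± 2012 in knockout and 12038 ± 1676 in wild type (SD, n = 4 each), and the log2 fold change was 0.31 ± 0.14 (limma adjusted p = 0.337). The unadjusted p was 0.0467, against 0.0528 with the replicate set as a term, and quantile normalization gave 0.17 with an unadjusted p of 0.148. Without wild type 1 the estimate was 0.20. The second probe set had 0.22 ± 0.14. Within replicates 1 and 2 the brighter one was higher by 0.57 ± 0.21, and within replicates 3 and 4 by 0.05 ± 0.10.

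Apoa5, Apoa4 and Apoc3 act on triglyceride-rich particles, and each had a larger SD among knockout than among wild-type livers. Apoa5, which helps lipoprotein lipase act on triglyceride-rich particles, read 20628, 15428, 13392 and 6655 on knockout 1 to 4, and 11989, 12368, 8456 and 12809 on wild type 1 to 4. Knockout 1, 2 and 3 lay above every wild-type array and knockout 4 below them all. The log2 fold change was 0.20 ± 0.29 (limma adjusted p = 0.793), or 0.53 without knockout 4, and the coefficient of variation was 41.2% in knockout and 17.5% in wild type.

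Apoa4, a protein of chylomicrons and HDL that newborn mouse liver also makes, had the same order of knockout arrays. Its brighter probe set, 1436504_x_at, read 22134, 17047, 13780 and 7991 on knockout 1 to 4, and 10094, 13439, 12447 and 14203 on wild type 1 to 4. Knockout 1 and 2 lay above every wild-type array, and knockout 4 was again the lowest. The log2 fold change was 0.20 ± 0.26 (limma adjusted p = 0.774), or 0.48 without knockout 4. The dimmer one, 1417761_at, read 16054, 12032, 11358 and 2863 in knockout, against 3317, 6038, 5451 and 8947 in wild type. There 3 knockout arrays lay above every wild-type array and knockout 4 below them, and the log2 fold change was 0.67 ± 0.48 (limma adjusted p = 0.566). Without knockout 1 it was 0.39, and without wild type 1 it was 0.42. Without knockout 4 it was 1.21 (limma adjusted p = 0.064). The suffix x_at is Affymetrix's mark for a probe set some of whose probes can match other transcripts, so the 2 estimates need not read the same RNA. Apoa4 and Apoa5, whose promoter stretches are shown above, had a Pearson r of 0.894 over the 8 arrays.

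Apoc3, an inhibitor of lipoprotein lipase and of particle uptake, was the most variable gene by fold range among those represented by their brightest probe set. It read 19357, 3381, 8088 and 4995 on knockout 1 to 4, and 6028, 3234, 5595 and 9856 on wild type 1 to 4. The highest signal was 5.99 times the lowest, and knockout 1 was the 1 knockout array above every wild-type array. The log2 fold change was 0.32 ± 0.48 with a 95% interval from -0.75 to 1.40 (limma adjusted p = 0.804). Without knockout 1 it was -0.15. In the chromosome 9 cluster, Apoc3 had a higher correlation with Apoa1 (Pearson r = 0.851) than with Apoa4 (0.462) or Apoa5 (0.466) over the 8 arrays, which share their scaling.

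Apoc2, the activator of lipoprotein lipase, had nearly equal means of 17509 ± 1870 in knockout and 17498 ± 3329 in wild type (SD, n = 4 each). It read 16582, 15719, 20036 and 17699 on knockout 1 to 4, and 14627, 15292, 18134 and 21940 on wild type 1 to 4. In both groups replicates 1 and 2 lay below replicates 3 and 4. The log2 fold change was 0.01 ± 0.14, with a 95% interval from -0.29 to 0.32 (limma adjusted p = 0.977).

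Apoe, the ligand by which remnant particles are taken up through the LDL receptor family, read 31847, 26080, 27677 and 26052 on knockout 1 to 4, and 23216, 24841, 29281 and 29492 on wild type 1 to 4. The groups overlapped over most of their range. The log2 fold change was 0.07 ± 0.11, with a 95% interval from -0.17 to 0.30 (limma adjusted p = 0.818). Macrophages make Apoe as well. Of 12 macrophage and Kupffer cell markers tested, 7 lay above 0, and their summed signal ran from 31606 to 52563 in knockout and from 31158 to 42098 in wild type. Their part in the Apoe values was not tested, and in bulk liver fewer cells of a type and less RNA per cell cannot be told apart.

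**Figure D3:**
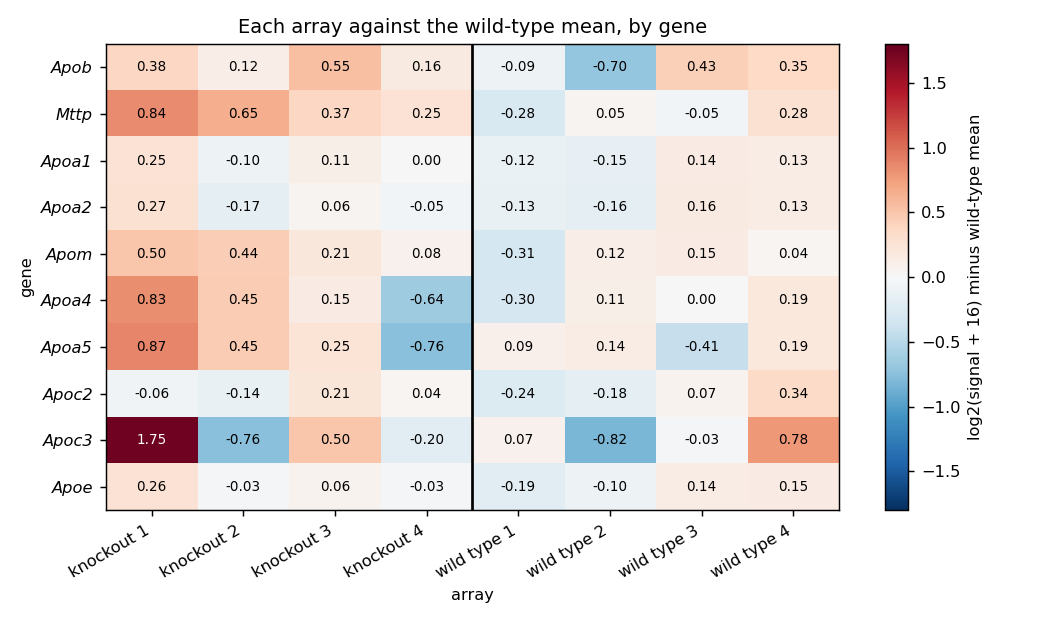
Deviation of each array from the wild-type mean in log2(signal + 16), as colour and number, for 10 genes (rows) and 8 arrays (columns, knockout left of the line and wild type right). Knockout 1 is positive for 9 of 10 genes and reaches 1.75 for Apoc3, and knockout 4 is negative for Apoa4 (-0.64) and Apoa5 (-0.76).

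Set against the wild-type mean, the median of the 10 genes was 0.44 on knockout 1, 0.04 on knockout 2, 0.21 on knockout 3 and -0.01 on knockout 4, in log2 units. On wild type 1 to 4 it was -0.16, -0.12, 0.11 and 0.19. Knockout 1 was the highest of the 8 arrays for 8 of the 10 genes, where it was the highest for 20.0% of all probe sets tested and for 36.2% of those at least as bright as the dimmest of the 17. Knockout 1 also had the highest pyruvate carboxylase 3'/5' ratio, and the part of that ratio in these values was not tested. Wild type 1 and 2 were together the lowest array for 7 of the 10 genes, wild type 1 for 4 and wild type 2 for 3. Over all probe sets tested, wild type 1 was the lowest for 18.5% and wild type 2 for 8.84%. Knockout 1 was the lowest for 0 of the 10 genes and for 25.3% of all tested.

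For most genes the estimates had opposite signs in the replicate sets, although the difference between the sets passed the test for 0 of 10 genes. In replicates 1 and 2 the log2 fold change lay above 0 for 10 of 10 genes, with a median of 0.56 beside -0.05 over all probe sets tested. In replicates 3 and 4 it lay above 0 for 2 of 10 genes, Mttp and Apom, with a median of -0.11 beside -0.00103. For the 4009 bright probe sets described above, the median was 0.09 in replicates 1 and 2, where 58.6% lay above 0. In replicates 3 and 4 their median was 0.01, with 52.4% above 0. For 8 of 10 genes both knockout arrays lay above both wild-type arrays in replicates 1 and 2, which 21.4% of all probe sets tested did. In replicates 3 and 4 this held for 0 of the 10 (23.2% of all tested), although it did for the dimmer Mttp probe set. A positive value in the first set and a negative one in the second was found for 8 of 10 genes and for 18.5% of all probe sets tested. The second set holds wild type 4, the array that did not read as male. That array lay above the wild-type mean for 10 of 10 genes. In the comparison over both sets, leaving it out kept 10 of 10 genes above 0. With the replicate set as a term and without wild type 4, the median of the 10 genes was 0.34, against 0.20 with every array. The part of wild type 4 in the values within replicates 3 and 4 was not tested.

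**Figure D4:**
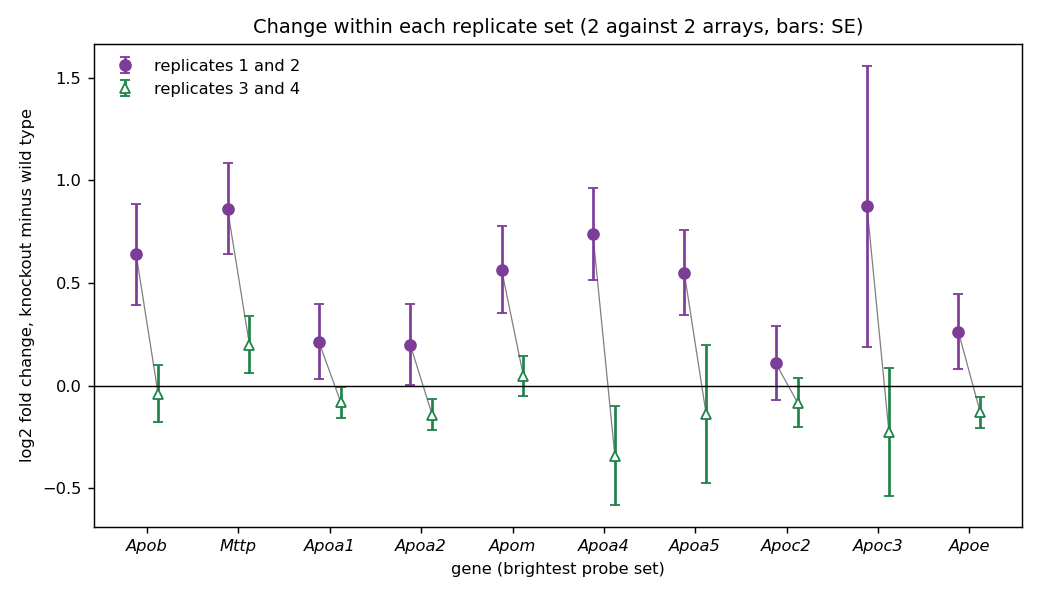
Log2 fold change, knockout minus wild type (y axis), for the brightest probe set of each gene (x axis) within replicates 1 and 2 (filled circles) and within replicates 3 and 4 (open triangles), 2 arrays against 2, with SE bars from limma and thin lines joining the values of a gene. The 10 circles run from 0.11 for Apoc2 to 0.87 for Apoc3, and the triangles from -0.34 for Apoa4 to 0.20 for Mttp.

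Neither set called any of the 10 genes (limma, where 0.147% of probe sets were called in replicates 1 and 2 and 0.00981% in replicates 3 and 4). At an unadjusted p under 0.05 replicates 1 and 2 gave 5 genes higher and 0 lower, where 7.33% of all probe sets tested were higher and 8.45% lower. Of the 4009 bright probe sets, 539 were higher and 337 lower there. Replicates 3 and 4 gave 0 higher and 0 lower, where 7.04% and 7.33% of all tested were; of all 17 probe sets, the dimmer Mttp one was higher and 1 of Apoa1 lower at that p. The difference between the sets was below 0 for 10 of 10 genes, with a median of -0.59 beside 0.03 over all probe sets tested. Among the 4009 bright probe sets the median was -0.09, and 40.9% lay above 0. The difference was called for 0 of 10 genes by limma, where 0.00981% of all probe sets were called. At an unadjusted p under 0.05 there were 3 (Apoa4, Apom and Mttp), all below 0, where 3.96% of all tested were below 0 and 5.96% above 0 at that p. Of the 4009 bright probe sets, 261 were below 0 and 235 above 0 at that p. The largest estimate among all 17 probe sets was that of the dimmer Apoa4 probe set, at -1.92 ± 0.79, with 1.63 ± 0.30 in replicates 1 and 2 and -0.29 ± 0.59 in replicates 3 and 4 (limma adjusted p = 0.490 for the difference).

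Markers of hepatocytes, the cells that make these proteins, had the same order of medians in the replicate sets. Of 12 hepatocyte markers tested, Alb, Ttr and Ahsg among them, 12 lay above 0, with a median log2 fold change of 0.09, and their summed signal ran from 235200 to 330358 in knockout and from 212538 to 267524 in wild type. Their median was 0.31 in replicates 1 and 2 and -0.12 in replicates 3 and 4, beside 0.56 and -0.11 for the 10 genes. The order was not particular to hepatocytes. Macrophage and Kupffer cell markers had medians of 0.37 and -0.14, and endothelial markers 0.15 and -0.22. Stellate cell and fibroblast markers had 0.02 and -0.58, and neutrophil and myeloid markers -0.06 and -0.39. Erythroid markers, of the blood-forming cells of newborn liver, went the other way, with medians of -0.48 and 0.17 in the same sets. So did adipocyte (-0.24 and -0.04) and cholangiocyte markers (-0.10 and -0.03), with 2 tested in each list. The part of these in the apolipoprotein values was not tested.

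Small intestine epithelium also makes Apoa4, Apob and Mttp. Of its markers Vil1, Lct, Cdx1, Cdx2 and Slc5a1 did not reach the signal minimum, and the 5 that did summed to 3071 to 4668 in knockout and 3737 to 5059 in wild type. Of these 5, 1 lay above 0 (Anpep, 0.26). Fabp2 and Rbp2 were lower on every knockout array than on any wild-type array, and neither passed the test (limma adjusted p = 0.105 and 0.137). The share of all probe sets tested that were lower without overlap was not counted, here or for Pcolce2 and Apol7a below.

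Other lipoprotein genes were read in 6 lists, with 109 genes tested of 131 listed. None passed the test (limma), 67 lay above 0 and their median was 0.08. At an unadjusted p under 0.05, 16 were higher and 10 lower, where 7.12% and 7.32% of all probe sets tested were. Their medians were 0.27 in replicates 1 and 2 and -0.08 in replicates 3 and 4.

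For lipidation and secretion of VLDL, 0 of 34 genes passed and 21 lay above 0 (median 0.09). Pnpla2, the triglyceride lipase of lipid droplets, read 4702, 2320, 2280 and 1265 on knockout 1 to 4, and 989, 1125, 928 and 1392 on wild type 1 to 4. Knockout 4 alone fell within the wild-type range, and the log2 fold change was 1.10 ± 0.32 (limma adjusted p = 0.166). Lpin1, a phosphatidate phosphatase on the path to triglyceride, averaged 4937 ± 3587 in knockout and 1257 ± 357 in wild type (SD, n = 4 each; log2 fold change 1.64 ± 0.51; limma adjusted p = 0.189). Without knockout 4 both passed, Lpin1 at 2.21 and Pnpla2 at 1.40 (limma adjusted p = 0.0203 and 0.0377). That fit called 334 probe sets in all, against 61 with every array. The partner subunit of Mttp, the protein disulfide isomerase P4hb, was chosen after its values were seen and stood at -0.0045 ± 0.10, with means of 19413 ± 1256 in knockout and 19530 ± 2130 in wild type.

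In the list of HDL formation and remodelling 0 of 9 genes passed and 5 lay above 0 (median 0.09). Pcolce2 had a log2 fold change of -1.13 ± 0.28, with 342 ± 101 in knockout and 777 ± 274 in wild type (SD, n = 4 each), and the groups did not overlap (limma adjusted p = 0.107). Atp5b, an ATP synthase subunit reported on the cell surface as an HDL protein receptor, stood at 0.23 ± 0.10. Among lipoprotein receptors and uptake genes 0 of 13 passed and 6 lay above 0 (median -0.13). The chaperone Lrpap1, which keeps newly made receptors from binding ligand, stood at -0.59 ± 0.17, and the remnant-binding proteoglycan Sdc1 at -0.67 ± 0.22 (limma adjusted p = 0.166 and 0.201). Sdc1 passed without wild type 1, at -0.90 (limma adjusted p = 0.0369).

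In the lipoprotein lipase list 0 of 10 genes passed and 6 lay above 0 (median 0.13). Lpl, which newborn mouse liver expresses, read 22992, 16498, 19684 and 16395 on knockout 1 to 4, and 13524, 12473, 13482 and 15157 on wild type 1 to 4. The groups did not overlap, and the log2 fold change was 0.46 ± 0.12 (limma adjusted p = 0.137). Its values within the sets were 0.58 and 0.33. Furin, a protease that cleaves lipase regulators, stood at 0.45 ± 0.16.

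Among transcriptional regulators of apolipoprotein genes 0 of 30 passed and 21 lay above 0, at a median of 0.17. Ppargc1a, a coactivator of the fasting response, had a log2 fold change of 1.42 ± 0.38 and the forkhead factor Foxa3 of 0.61 ± 0.18 (limma adjusted p = 0.134 and 0.166). With the replicate set as a term and without wild type 4, Ppargc1a passed at 1.86 (limma adjusted p = 0.026). Foxa3 read 4760, 3270, 3029 and 2646 on knockout 1 to 4, and 1993, 2421, 2157 and 2217 on wild type 1 to 4, with no overlap. Hnf4a, the nuclear receptor for the HNF4-type element, was chosen after its values were seen and stood at 0.73 ± 0.27 (limma adjusted p = 0.251). Other apolipoproteins and apoB editing genes had 0 of 13 passing and 8 above 0 (median 0.03). Apol7a stood at -0.91 ± 0.24, with all knockout arrays (479 to 1027) below all wild-type arrays (1210 to 1617; limma adjusted p = 0.127). It passed with the replicate set as a term (limma adjusted p = 0.0385). Naxe, a metabolite repair enzyme that binds Apoa1, stood at -0.33 ± 0.15.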

How the data were processed

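RNA from 8 individual livers was measured on 8 arrays. The deposited signal intensity values were made by the authors with Affymetrix GCOS 1.2 at default settings per the labels, which give a scaling target of 500. That scaling was kept: every array had a mean of 500 once the outer 2% at either end was dropped. The table holds 45101 probe sets, 64 of them controls, which were left out. Probe sets were named from the platform annotation and the RefSeq table. The minimum for testing was a signal of 200, reached on 4 or more of the 8 arrays. Log2(signal + 16) was compared by the moderated two-sided test of limma 3.58.1 (R 4.3.3; eBayes with its trend option), adjusted over all 20395 probe sets tested. The same settings were used within the replicate sets and for the interaction of set and genotype. The pipeline was tested on simulated data. A gene stands for its brightest tested probe set unless another is named. The number of arrays limits the precision. Nothing says whether the livers came from separate litters, so p-values measure the spread between these samples.

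Groups came from the sample titles. All 10 genes are described. Related genes are named by smallest p, up to 4 past the threshold per list, otherwise 2. The members, lists, motifs and rules were chosen with earlier results of these data known. Alternatives were other pseudocounts, signal minimums, scalings, limma settings, the mean over a gene's probe sets, blocks, and each array left out. Summaries used pandas 2.3.3 on Python 3.11.15, and plots matplotlib 3.10.9.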

Additional observations from a re-analysis of the deposited data

Results flagged for a closer look

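By their brightest probe sets, Apoa1 and Apoe lay on opposite sides in the replicate sets. In replicates 1 and 2 both knockout arrays lay above both wild-type arrays, and in replicates 3 and 4 both lay below. For Apoa1's probe sets 1419233_x_at, 1455201_x_at and 1438840_x_at the arrays of replicates 1 and 2 overlapped. The first part of the pattern held for 21.4% of all probe sets tested, and the share with the whole pattern was not counted. The difference of the log2 fold changes, replicates 3 and 4 minus replicates 1 and 2, was -0.29 ± 0.19 for Apoa1 and -0.39 ± 0.18 for Apoe (SE; limma interaction, adjusted p = 0.594 and 0.508, unadjusted p = 0.147 and 0.0551). The replicate sets differ in the transferrin receptor control ratio, and its part in this was not tested.

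For 2 related genes 1 wild-type array stood far from the other 3. Lrpap1 read 2960 on wild type 4, against 4104 to 4297 on wild type 1 to 3. Sdc1 read 2767 on wild type 1, against 5033 to 5469 on the other 3. Of 58 groups of 4 examined over 29 probe sets, these 2 were marked, and chance marks about 1 in 20. No group of the 17 apolipoprotein and Mttp probe sets was marked.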

How the results depend on the processing

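None of the 10 genes was called in any of the 20 alternatives, the range of the count being 0 to 0, nor within a replicate set with no signal minimum, nor for the difference between sets without a trend. The genes' median stayed between 0.0021 (without knockout 1) and 0.36. Both Mttp probe sets stayed above 0 in all of them, between 0.43 and 0.66 for the brighter and 0.58 and 0.81 for the dimmer one, with unadjusted p up to 0.0256 and 0.0041; the dimmer one was called without knockout 4 alone. Apom and Apoe kept their sign as well, as did the brighter Apob and the dimmer Apoa4 probe set. Quantile normalization turned the sign of Apoa2 (-0.0052), Apoc2 (-0.087) and Apoa1's probe sets 1419233_x_at (-0.025), 1455201_x_at (-0.0043) and 1438840_x_at (-0.0098), and put Apoa1's brightest at 0. Leaving out 1 array turned the sign of several: the range was -0.052 to 0.092, -0.065 to 0.081 and -0.074 to 0.098 for these 3 Apoa1 probe sets, -0.053 to 0.094 for Apoa2, -0.013 to 0.48 for Apoa4, -0.018 to 0.53 for Apoa5, -0.15 to 0.68 for Apoc3, -0.066 to 0.13 for Apoc2 and -0.13 to 0.34 for the dimmer Apob probe set. Apoa4, Apoa5 and Apoc3 turned only without knockout 1. The cause was not tested.

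The count of related genes called, 0 in the comparison, was 1 with the replicate number as a block (Pcolce2, -1.13; limma adjusted p = 0.0418, against 0.107), 1 with the replicate set as a term (Apol7a), 2 with that term and without wild type 4 (Apol7a and Ppargc1a), and 0 to 4 with 1 array left out: Lpin1, Pnpla2, Rxra and Cebpb without knockout 4, and Sdc1 without wild type 1. Replicate numbers are shared by the groups, but the correlations of same-numbered deviations were 0.218, 0.404, 0.339 and 0.0512. Knockout 1, 2 and 3 correlated best with the same-numbered wild type and knockout 4 with wild type 3, a hint from the data. As 1 of 4 pairs lay under 0.1 and the labels do not say which pups shared a litter or day, the numbers were not taken to pair the samples. The replicate block left the estimates as they were and called 56 probe sets in all, against 61. All probe sets called ranged from 2 to 334 when 1 array was left out, the 334 being without knockout 4. They were 18 without a trend, 184 with the replicate set as a term and 154 with that and without wild type 4. With no signal minimum and a minimum of 100 they were 21 and 22.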
